A study of Mus musculus with 18 samples.

Results

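GFP+ cells of the Tcf21 lineage were compared between hearts resected at P10 and collected at P13 and hearts resected at P2 and collected at P5, both 3 days after surgery. These 2 groups hold 3 libraries each, or 6 of the 18 bulk RNA sequencing libraries of the study, and were taken by their labels. The pups of all groups were Tcf21-MerCreMer; Rosa-mTmG mice of the C57BL/6J strain, with 1 copy of each allele by the study's methods, that received tamoxifen at P1. In these mice Cre is driven from the Tcf21 locus, tamoxifen lets it reach the nucleus, and recombination turns the membrane tomato reporter into membrane GFP, which is then inherited by daughter cells. In the resected groups the ventricular apex was cut away at P2 or P10, and GFP+ cells were sorted from the digested lower ventricles. The remaining 4 groups, of 3 libraries each, were P2 and P10 pups without surgery (baseline) and pups collected at P5 and P13 after sham surgery. They are used below to set the same 8 days of age beside the resected comparison. They also enter its test, since all 18 libraries were fitted together and set the filter, the scaling and the spread behind each p-value.

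Several features limit these groups as a model. Label was given once, at P1, so cells that switched on Tcf21 later carry no GFP. The number and sex of the pups behind a library are not stated in the labels. Hearts of later stages were digested for longer, by the label text. The groups differ by 8 days of age as well as in the repair that follows resection, so age and the response to the cut cannot be told apart within them. Nothing in the labels says that the 3 libraries of a group came from separate litters. The p-values therefore measure the spread between libraries of a group, estimated over all groups, which may in part be technical.

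Resident cardiac fibroblasts arise mostly from the epicardium and express the transcription factor Tcf21 and the receptor Pdgfra. In the first days after birth they divide and lay down a loose matrix while the ventricle grows. With maturation they leave the cell cycle and produce a stiffer collagen network with its crosslinking enzymes, proteoglycans and basement membrane. The mouse ventricle can rebuild an amputated apex when it is cut shortly after birth, whereas resection about a week later leaves a lasting scar, and fibroblasts are the main source of matrix in either case. The comparison asks which fibroblast genes differ between these injury settings 3 days after the cut.

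Between 14440363 and 22980554 reads per resected library fell on genes, and values below are in CPM, that is, counts relative to the scaled size of each library, without correction for gene length. Replicates of a group correlated at r = 0.930 to 0.957 in log2 CPM across genes, which are not independent replicates. Mitochondrial genes took 0.616% to 1.05% of the counts. Tcf21 was at 341, 209 and 203 CPM in the P5 libraries and 297, 247 and 251 CPM in the P13 libraries, and Pdgfra at 352, 387 and 442 CPM in the P5 libraries and 484, 613 and 517 CPM in the P13 libraries, so that both lineage markers were present in every library. Xist was at 154 CPM in P5 replicate 1 with no read of Ddx3y, and in the other 5 libraries Xist had no read while Ddx3y lay at 47.2 to 107 CPM, so that P5 replicate 1 had the transcripts of female cells and the others those of male cells. P13 replicate 3 also stood apart. It was the highest of the P13 libraries for 68 of the 101 genes called higher at P13 below and the lowest for 31 of the 38 called lower. Of 83 called genes picked by the rule on named genes, 31 passed without P13 replicate 3 and 51 without P5 replicate 1, while 18 passed without P5 replicate 2, the fewest of any omission.

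Of 16170 genes tested, 139 passed an adjusted p of 0.05 in edgeR's quasi-likelihood test, which is 0.86% of the genes. Of these, 101 were higher at P13 (0.625%) and 38 were lower (0.235%). Their log2 fold changes ran from -4.66 to 6.41, leaving out Dio3os, which had no read at P5 and is given as a bound below, with a median of 1.95 for the higher and -1.95 for the lower genes, against -0.04 for all genes. The smallest change called was 0.80 upwards and -1.08 downwards, and no smaller age difference was called with 3 libraries a group. All 139 genes had levels that did not overlap between the groups, as did 1721 of all genes in the higher direction (10.6%) and 2054 in the lower (12.7%). With the replicate number as a block 124 genes were called higher and 62 lower. The number called was 88, 30 and 43 without P5 replicate 1, 2 or 3, and 126, 136 and 51 without P13 replicate 1, 2 or 3. Leaving out any of the 6 libraries kept 28 of the 139 genes, 21 higher and 7 lower. The 139 genes kept their direction in all 14 settings of the fit that were tried.

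**Figure D1:**
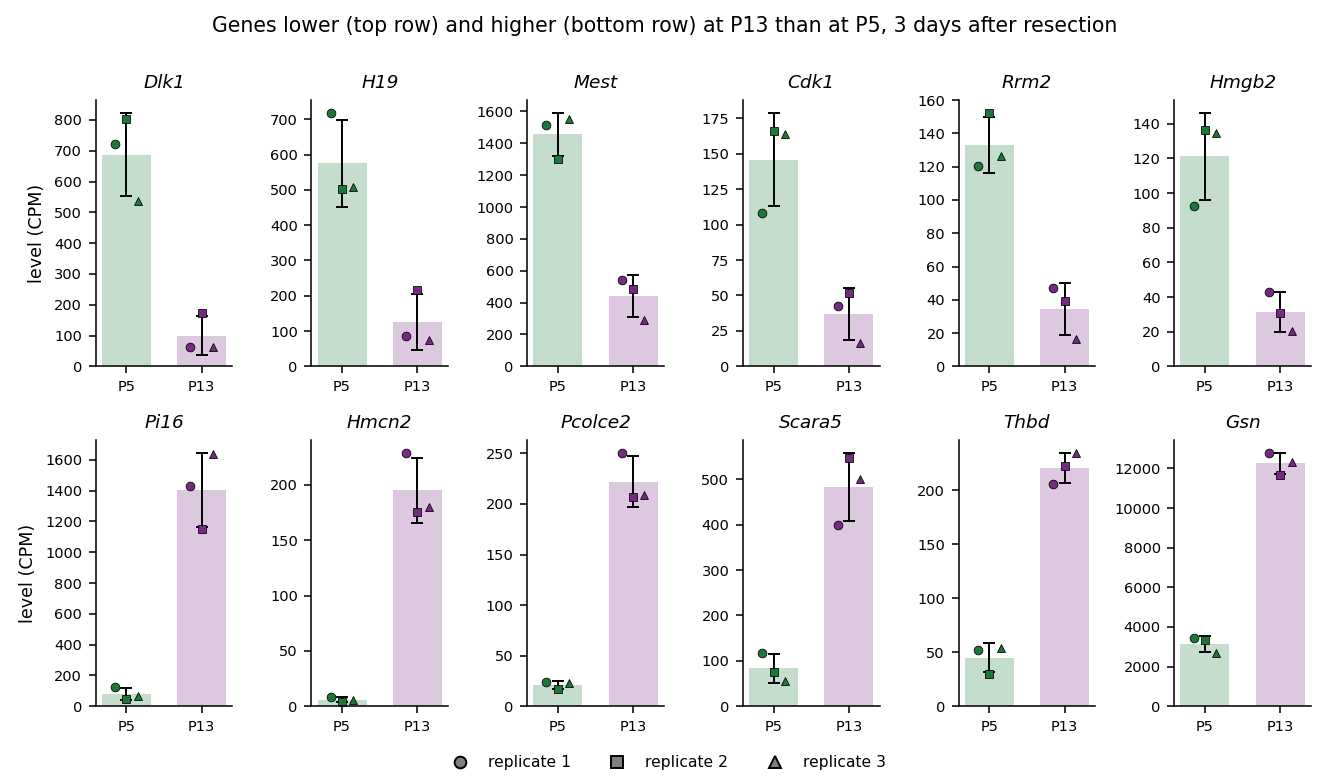
Levels in CPM (y axis) of 6 genes lower and 6 genes higher at P13, with 1 point per library, bars at the group mean and error bars of 1 SD (n = 3). In each of the 12 genes the 3 P13 libraries lie on one side of the 3 P5 libraries, as for Gsn at 3439, 3327 and 2678 CPM at P5 and 12759, 11668 and 12317 CPM at P13.

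Genes of cell division were lower at P13. The lists used were 43 genes of S phase and 54 of G2/M phase, and 6 of each passed the test, all lower, where 0.235% of all genes were called lower. Nearly all other members lay on the same side: 41 of 43 S phase genes and 54 of 54 G2/M genes had a negative fold change, with medians of -1.32 and -1.70, and 38 and 43 of them did not overlap between the groups (12.7% of all genes were lower without overlap). The summed level of the S phase genes was 2103, 2836 and 2435 CPM in the P5 libraries and 1444, 1137 and 875 CPM in the P13 libraries. That of the G2/M genes was 3461, 4905 and 4318 CPM at P5 and 1756, 2288 and 1368 CPM at P13. P13 replicate 3 was lowest in both sums, and no P13 library reached the lowest P5 library. Since the libraries are bulk, fewer dividing cells and less RNA of these genes per cell cannot be told apart.

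Cdk1, the kinase that drives entry into mitosis, was at 108, 166 and 164 CPM in the P5 libraries and 42.5, 51.5 and 16.2 CPM in the P13 libraries, with a log2 fold change of -1.99 ± 0.45 (SE), adjusted p = 0.0462. Ccnb2, a mitotic cyclin that partners it, was at 69.5, 122 and 123 CPM in the P5 libraries and 21.5, 48.1 and 15.7 CPM in the P13 libraries and fell by 1.88 ± 0.37 (SE) on the log2 scale, adjusted p = 0.0182. Both genes were lowest in P13 replicate 3, and their groups did not overlap. Nuf2, a kinetochore protein, had a log2 fold change of -2.49 ± 0.49 (SE), adjusted p = 0.0182, and Tacc3, a spindle protein, one of -1.56 ± 0.30 (SE), adjusted p = 0.0161. Hmgb2, a chromatin protein abundant in dividing cells, was at 92.4, 137 and 135 CPM in the P5 libraries and 42.9, 31.1 and 20.2 CPM in the P13 libraries, a log2 fold change of -1.95 ± 0.32 (SE), adjusted p = 0.00504. Tmpo, of the nuclear lamina, had one of -1.17 ± 0.25 (SE), adjusted p = 0.0302. Other cyclins did not pass: Ccna2, at 76.6, 156 and 110.2 CPM in the P5 libraries and 31.8, 43.9 and 17.6 CPM in the P13 libraries, had an adjusted p of 0.0559, and Ccnb1 had a log2 fold change of -1.58 ± 0.53 (SE), adjusted p = 0.247. Without P13 replicate 3 the adjusted p was 0.277 for Cdk1 and 0.146 for Ccnb2. Cdk1 passed in none of the 6 fits with a library left out, with adjusted p from 0.0519 to 0.277. Ccnb2, Nuf2, Tacc3 and Tmpo passed in 2 of them and lost their calls without P13 replicate 1 or 3 and without P5 replicate 2 or 3.

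Among the S phase members that fell, Rrm2 and Rrm1, the subunits of the ribonucleotide reductase that supplies deoxynucleotides, changed by -1.95 ± 0.34 (SE) and -1.35 ± 0.28 (SE) on the log2 scale, with adjusted p of 0.00925 and 0.0264. Rrm2 was at 121, 152 and 127 CPM in the P5 libraries and 47.1, 39.5 and 16.7 CPM in the P13 libraries, so that its highest P13 library lay below its lowest P5 library by a wide margin. Mcm6 and Mcm4, subunits of the replicative helicase, changed by -1.15 ± 0.23 (SE) and -1.25 ± 0.28 (SE), and Uhrf1, which carries DNA methylation to the new strand, by -1.98 ± 0.44 (SE). Cdc45, which joins that helicase, had a log2 fold change of -1.71 ± 0.35 (SE), adjusted p = 0.0213. Outside these lists, Kif15, a spindle motor, was at 25.6, 30.6 and 24.4 CPM in the P5 libraries and 4.08, 4.89 and 2.64 CPM in the P13 libraries, a log2 fold change of -2.79 ± 0.55 (SE), adjusted p = 0.019. Stmn1, which destabilizes microtubules, had one of -2.03 ± 0.40 (SE), adjusted p = 0.0183. Without P13 replicate 3 the adjusted p was 0.164 for Kif15, 0.117 for Stmn1 and 0.0405 for Rrm2, and that of the other genes of this paragraph lay between 0.181 for Mcm6 and 0.333 for Mcm4. Each of them lost its call without P5 replicate 2. The number of called members of the cell cycle lists rested on single libraries: it was 12 over both lists, 7, 13 and 2 without P13 replicate 1, 2 or 3 and 9, 1 and 2 without P5 replicate 1, 2 or 3, and Hmgb2 alone passed in each of these fits. DESeq2 called 40 and limma voom 67 of these members, against 12. Over all genes they called 499 and 908, with 188 and 418 lower, against 139 with 38 lower.

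Stretches from the 250 bases before the start sites of a few of these genes are shown because the members moved together and because dividing cells are known to read short elements in such promoters. The elements searched on both strands were the CCAAT box (CCAAT), bound by NF-Y, the cell cycle homology region or CHR (TTTGAA or TTCGAA), bound by the MuvB complexes, and the E2F site (TTTNNCGC). The stretches below are from RefSeq, mouse build GRCm38.p6, written 5′ to 3′ on the strand of the gene and ending at or just before its start site, with matches in capitals. Cdk1 is read from the minus strand at chr10:69352913-69353135, Ccnb2 from the minus strand at chr9:70421556-70421736 and Mcm6 from the minus strand at chr1:128359706-128359830. The last bases of the Cdk1 stretch lie in its first exon as GENCODE places it.
Cdk1: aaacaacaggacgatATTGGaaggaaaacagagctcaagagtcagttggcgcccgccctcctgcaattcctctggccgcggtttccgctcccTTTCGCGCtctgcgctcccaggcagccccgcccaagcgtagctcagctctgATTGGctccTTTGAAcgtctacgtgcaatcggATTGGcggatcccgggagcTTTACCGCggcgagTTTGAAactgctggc
Ccnb2: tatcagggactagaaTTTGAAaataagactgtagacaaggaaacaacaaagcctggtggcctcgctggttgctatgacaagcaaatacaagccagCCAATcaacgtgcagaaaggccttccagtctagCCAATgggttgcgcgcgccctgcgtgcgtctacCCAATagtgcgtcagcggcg
Mcm6: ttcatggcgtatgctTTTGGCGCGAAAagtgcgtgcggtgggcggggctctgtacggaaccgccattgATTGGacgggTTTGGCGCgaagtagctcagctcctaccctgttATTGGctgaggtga
Cdk1 holds 3 CCAAT boxes, 2 CHR elements and 2 E2F sites, Ccnb2 holds 3 CCAAT boxes and 1 CHR element, and Mcm6 holds 2 CCAAT boxes and 3 E2F sites, of which 2 overlap. Over 47 G2/M genes with a window, 36 held a CCAAT box (76.6%) and 22 a CHR element (46.8%), against 39.8% and 14.7% of the 11504 tested genes with a window. Of 31 S phase genes with a window, 10 held an E2F site (32.3%), against 8.03% of tested genes. Over all 32851 windows the shares were 33.8% for the CCAAT box, 17.1% for the CHR element and 4.28% for the E2F site. The motifs and the genes printed were chosen with the values known, and a match describes the letters only, not a bound site.

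**Figure D2:**
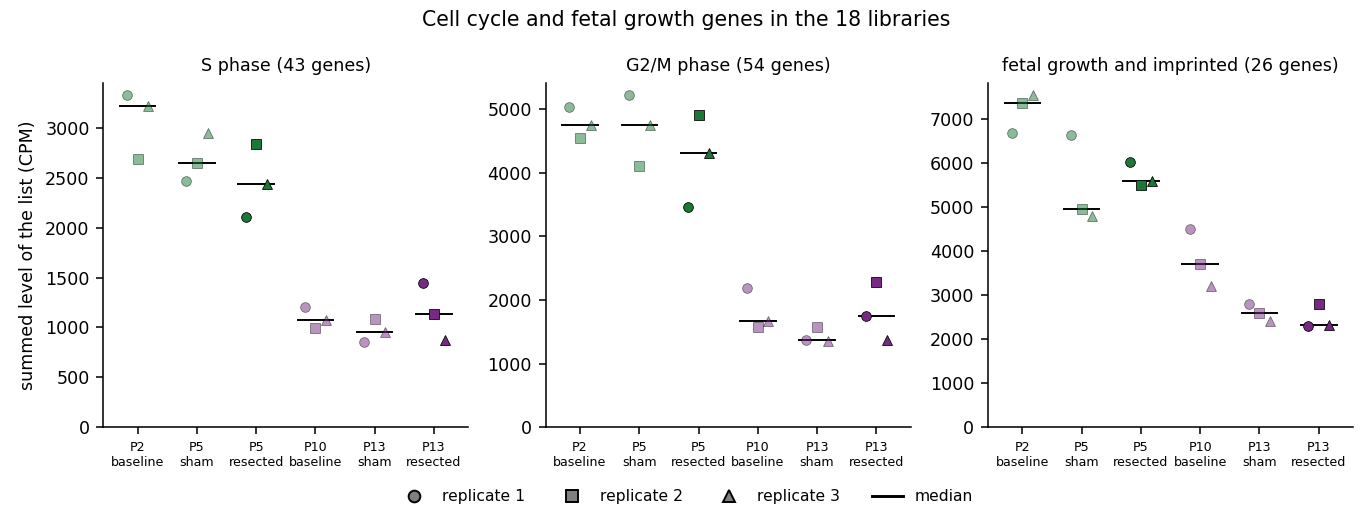
Summed level in CPM (y axis) of the S phase, G2/M phase and fetal growth lists in the 6 groups, with 1 point per library and a line at the group median. The 3 P13 resected libraries, at 1444, 1137 and 875 CPM for the S phase list, lie below all P2 and P5 libraries in each panel.

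The next list holds genes of fetal growth, many of them imprinted. Of 22 members tested, 5 passed the test, all lower (0.235% of all genes), and 14 were lower without overlap (12.7% of all genes), with a median log2 fold change of -1.41. The summed level of the list was 6023, 5498 and 5607 CPM in the P5 libraries and 2303, 2799.9 and 2318 CPM in the P13 libraries. Dlk1 (chr12:109452823-109463336), a Notch-like membrane protein of immature mesenchyme, was at 721, 803 and 538 CPM in the P5 libraries and 62.3, 173 and 62.4 CPM in the P13 libraries, a log2 fold change of -2.79 ± 0.37 (SE), adjusted p = 0.00091. Mest (chr6:30723547-30748465), an imprinted hydrolase of growing mesoderm, was at 1515, 1302 and 1552 CPM in the P5 libraries and 543, 488 and 290.2 CPM in the P13 libraries, with -1.72 ± 0.24 (SE), adjusted p = 0.00119. P13 replicate 2 kept more Dlk1 than the other P13 libraries, and no P13 library of either gene came near the P5 range.

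Gpc3, a cell surface proteoglycan on the X chromosome (chrX:52272426-52613950) that holds growth in check, was at 752, 714 and 758 CPM in the P5 libraries and 269, 363 and 282 CPM in the P13 libraries, a log2 fold change of -1.28 ± 0.20 (SE), adjusted p = 0.0038. Its level in P5 replicate 1 was between those of the other P5 libraries. H19, the imprinted noncoding RNA beside Igf2, was at 718, 501 and 507 CPM in the P5 libraries and 87.1, 217 and 73.6 CPM in the P13 libraries, with -2.19 ± 0.46 (SE), adjusted p = 0.0264, and Igf2bp3, a fetal RNA-binding protein, had a log2 fold change of -1.98 ± 0.37 (SE), adjusted p = 0.013. Mest, Dlk1 and Gpc3 passed with any 1 library left out, whereas H19 and Igf2bp3 did not, with an adjusted p of 0.208 and 0.11 without P13 replicate 3. Called members numbered 4, 5 and 3 without P13 replicate 1, 2 or 3 and 4, 3 and 3 without P5 replicate 1, 2 or 3, against 5. Other imprinted genes did not pass: Igf2 was at 57.1, 69.2 and 56.3 CPM in the P5 libraries and 30.7, 65.6 and 15.8 CPM in the P13 libraries, overlapping, and Cdkn1c, an imprinted inhibitor of the cell cycle, was at 169.8, 148 and 135 CPM in the P5 libraries and 91.5, 158 and 149.6 CPM in the P13 libraries. Of the bases of Mest's exons 23.1% also lie in exons of Copg2, of Igf2bp3's 18.7% in another gene and of H19's 9.15%, and reads there could not be assigned by strand.

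Ptn, the growth factor pleiotrophin, was on none of the lists and was at 1254, 872 and 1179.7 CPM in the P5 libraries and 351, 365 and 258 CPM in the P13 libraries, a log2 fold change of -1.76 ± 0.24 (SE), adjusted p = 0.00091. It passed with any 1 library left out, with adjusted p from 0.00272 to 0.00929. Capn6, a calpain without protease activity that was picked here after its values were seen, changed by -1.98 ± 0.23 (SE), adjusted p = 0.000343, and Ripor2 by -2.44 ± 0.39 (SE), adjusted p = 0.0048. Cpe, a carboxypeptidase of the secretory pathway, and Pdlim3, an actin-associated protein, had log2 fold changes of -1.34 ± 0.25 (SE) and -1.24 ± 0.21 (SE), both passing with all libraries. Cpe passed in 1 of the 6 fits with a library left out, with adjusted p from 0.0163 to 0.144 and 0.144 without P13 replicate 3, and Pdlim3 in all but the fit without P5 replicate 3.

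The major fibrillar collagens overlapped between the ages. Of 11 members tested, 2 passed, both lower (0.235% of all genes), and the median was -0.04, the same as over all genes. Col1a1 was at 6451, 14119 and 15422 CPM in the P5 libraries and 10916, 14682 and 9385 CPM in the P13 libraries, and Col3a1 at 27559.5, 42337 and 48984 CPM in the P5 libraries and 40197, 58437 and 53575 CPM in the P13 libraries. The groups overlapped for both, and P5 replicate 1 was lowest. The members that fell were minor chains known to nucleate or regulate fibres: Col11a1 was at 67.1, 107 and 108 CPM in the P5 libraries and 8.95, 17.6 and 12.9 CPM in the P13 libraries, a log2 fold change of -2.84 ± 0.53 (SE), adjusted p = 0.0138, and Col24a1 at 19.3, 22.7 and 30.9 CPM in the P5 libraries and 5.62, 3.69 and 4.27 CPM in the P13 libraries, with -2.42 ± 0.45 (SE), adjusted p = 0.013. Both lost the call without P13 replicate 3 (adjusted p = 0.106 and 0.0953) and without P5 replicate 2 or 3 (0.073 and 0.0578 for Col11a1, 0.063 and 0.0846 for Col24a1). Col11a1 also lost it without P13 replicate 1, at 0.0664, and Col24a1 without P13 replicate 2, at 0.0573.

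Contractile genes of the myofibroblast did not pass the test in either direction. None of 27 members was called, 21 had a negative fold change, and the median was -0.46. Acta2, smooth muscle actin, was at 615, 1304 and 1476 CPM in the P5 libraries and 673, 656 and 383 CPM in the P13 libraries, with -0.99 ± 0.36 (SE), adjusted p = 0.321. Postn, the matricellular protein periostin of activated fibroblasts, was at 13330.2, 9764 and 17040.2 CPM in the P5 libraries and 5768, 4588 and 4639 CPM in the P13 libraries. Every P13 level of Postn lay below the P5 levels, yet its log2 fold change of -1.42 ± 0.44 (SE) gave an adjusted p of 0.185.

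Pcolce2, Hmcn2 and Smoc2, secreted proteins of the matrix, were higher at P13. Pcolce2 (chr9:95637601-95698096), an enhancer of the protease that trims procollagen, was at 24.2, 16.7 and 22.5 CPM in the P5 libraries and 251, 207 and 209 CPM in the P13 libraries, and its log2 fold change was 3.39 ± 0.30 (SE), adjusted p = 3.07e-05, the smallest adjusted p of the genes named here. Hmcn2 (chr2:31314415-31460738), a hemicentin of the basement membrane zone, was at 7.86, 3.29 and 5.78 CPM in the P5 libraries and 229, 176 and 180.0 CPM in the P13 libraries, with 5.11 ± 0.54 (SE), adjusted p = 0.000106. Smoc2, a calcium-binding matricellular protein, was at 1213, 1053 and 948 CPM in the P5 libraries and 2606, 2988 and 2951 CPM in the P13 libraries, with 1.41 ± 0.17 (SE), adjusted p = 0.000354. The P13 libraries lay close together for all of them, far from the P5 libraries, and each passed with any 1 library left out, with adjusted p from 0.00012 to 0.000966 for Pcolce2, 0.000222 to 0.00261 for Hmcn2 and 0.00116 to 0.00675 for Smoc2.

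Other matrix members passed with less margin. Podn, a small leucine-rich proteoglycan, was at 9.03, 6.88 and 5.95 CPM in the P5 libraries and 99.7, 54.5 and 119.6 CPM in the P13 libraries, with 3.65 ± 0.60 (SE), adjusted p = 0.0054, and lost the call without P5 replicate 2 (0.063) or 3 (0.0537). Emilin2, an elastic fibre glycoprotein, had a log2 fold change of 1.40 ± 0.26 (SE), adjusted p = 0.0131, and adjusted p from 0.00767 to 0.131 with 1 library left out. Col4a4, a basement membrane chain, had one of 2.87 ± 0.59 (SE), adjusted p = 0.0251, and lost its call with any library but P13 replicate 2 left out, with adjusted p from 0.0378 to 0.202. Among 34 matrix proteases and inhibitors 4 were called, all higher (0.625% of all genes): the metalloproteinase inhibitors Timp1 and Timp2 and the fibrillin-binding Adamtsl2 and Adamtsl4. Timp1 was at 36.2, 88.5 and 75.3 CPM in the P5 libraries and 272, 146 and 493 CPM in the P13 libraries, a log2 fold change of 2.19 ± 0.45 (SE), adjusted p = 0.025, with P13 replicate 3 highest and an adjusted p of 0.211 without it. Timp2 was at 1595, 1404 and 1785 CPM in the P5 libraries and 2573, 3110.4 and 2958 CPM in the P13 libraries, a change of 0.85 ± 0.16 (SE). Adamtsl4 changed by 1.43 ± 0.22 (SE) and Adamtsl2 by 2.13 ± 0.43 (SE). This list's calls numbered 5, 3 and 1 without P13 replicate 1, 2 or 3 and 1, 0 and 3 without P5 replicate 1, 2 or 3.

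In the matrix lists as a whole, where 0.86% of all genes were called, there was 1 call among 23 basement membrane genes, 1 of 30 for collagen processing, 2 of 19 for elastic fibres and hemicentins, 1 of 15 for small leucine-rich proteoglycans and 1 of 26 for matricellular proteins. With the replicate number as a block, which called 186 genes in all, the elastic fibre list had 4 calls, the small leucine-rich list 2 and the matricellular list 2. Of the calls gained on the elastic fibre list, Fbln1 was higher at P13 and Hmcn1 lower, with log2 fold changes of 1.05 and -2.58. DESeq2 called 2, 3, 6, 3 and 5 members of the lists in the order first given, and limma voom 4, 9, 9, 4 and 9. Over all genes these methods called 499 and 908, against 139 in edgeR's test, so the 0.86% is not their background. None of 22 other collagens and none of 13 hyaluronan and large proteoglycan genes passed.

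Genes of adventitial fibroblasts, also called universal fibroblasts because they recur across organs, made up the list with most calls upwards. Of 16 members 7 passed, all higher (0.625% of all genes were called higher), and 10 were higher without overlap (10.6% of all genes), with a median log2 fold change of 1.29. The summed level was 3697, 2524 and 3361 CPM in the P5 libraries and 7927, 7999.6 and 11091 CPM in the P13 libraries. The list's calls numbered 7, 6 and 4 without P13 replicate 1, 2 or 3 and 6, 3 and 4 without P5 replicate 1, 2 or 3, and Pi16, Ly6a and Scara5 passed in each of these fits.

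Pi16 (chr17:29317680-29330593), a peptidase inhibitor that marks adventitial fibroblasts, was at 123, 46.9 and 63.9 CPM in the P5 libraries and 1429, 1154 and 1635 CPM in the P13 libraries, a log2 fold change of 4.18 ± 0.43 (SE), adjusted p = 0.000106. Scara5 (chr14:65666403-65764826), a scavenger receptor for ferritin, was at 117, 75.6 and 56.3 CPM in the P5 libraries and 399.7, 548 and 502 CPM in the P13 libraries, with 2.54 ± 0.32 (SE), adjusted p = 0.000642. For both genes the P13 libraries lay close together and far above those of P5. Ly6a (chr15:74994877-74998031), the stem cell antigen Sca-1, was at 31.5, 11.2 and 19.5 CPM in the P5 libraries and 449.5, 238 and 2320.0 CPM in the P13 libraries, with 5.60 ± 0.85 (SE), adjusted p = 0.00355, and its neighbour Ly6c1 was at 18.2, 2.82 and 5.62 CPM in the P5 libraries and 184, 95.5 and 632 CPM in the P13 libraries, with 5.10 ± 0.99 (SE), adjusted p = 0.0165. P13 replicate 3 was far above the other P13 libraries for this pair. Without it the adjusted p was 0.00768 for Ly6a and 0.0953 for Ly6c1. The 2 genes belong to a family of near copies, so that reads matching more than 1 member may have been misassigned or left uncounted. Cd248, or endosialin, was at 349.5, 299 and 283 CPM in the P5 libraries and 728, 840.4 and 699 CPM in the P13 libraries and Clec3b, the plasminogen-binding tetranectin, at 183, 103 and 104 CPM in the P5 libraries and 567, 493 and 549.9 CPM in the P13 libraries, with log2 fold changes of 1.28 ± 0.24 (SE) and 2.04 ± 0.38 (SE). Gfpt2, of the hexosamine pathway, changed by 1.30 ± 0.29 (SE), adjusted p = 0.0402. Without P13 replicate 3 the adjusted p was 0.054 for Clec3b, 0.257 for Gfpt2 and 0.037 for Cd248, and without P5 replicate 2 it was 0.129, 0.289 and 0.102. Cd34 and Dpp4, other markers of these cells, had log2 fold changes of 0.79 (adjusted p = 0.103) and 1.16 (adjusted p = 0.162). With the replicate number as a block Dpp4 had an adjusted p of 0.0490.

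Among 15 genes of general fibroblast identity 2 passed, both higher (0.625% of all genes). Gsn, the actin-severing gelsolin, was at 3439, 3327 and 2678 CPM in the P5 libraries and 12759, 11668 and 12317 CPM in the P13 libraries, with 1.96 ± 0.24 (SE), adjusted p = 0.000358, and Htra3, a secreted serine protease, was at 1045, 843 and 744 CPM in the P5 libraries and 2874, 3252 and 4913 CPM in the P13 libraries, with 2.07 ± 0.27 (SE), adjusted p = 0.000743. Mgp, an inhibitor of calcification that was on no list, was at 435, 350.2 and 524 CPM in the P5 libraries and 1385, 1409.9 and 2832 CPM in the P13 libraries, with 2.10 ± 0.32 (SE), adjusted p = 0.0038. All of these passed with any 1 library left out. None of 30 cardiac fibroblast transcription factors passed, and 19 of them had a negative fold change, with a median of -0.30.

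Further secreted and surface proteins that passed in all 14 settings were picked here after their values were seen. Crispld2, a secreted glycoprotein, was at 113, 111 and 122 CPM in the P5 libraries and 515, 438 and 523 CPM in the P13 libraries, with 2.09 ± 0.21 (SE), adjusted p = 0.000106. C1qtnf1, a C1q-like adipokine, changed by 2.11 ± 0.25 (SE), adjusted p = 0.000343, and Steap3, an iron reductase, by 1.87 ± 0.24 (SE), adjusted p = 0.000642. Ace, the angiotensin-converting enzyme, was at 62.1, 88.0 and 88.7 CPM in the P5 libraries and 224, 241 and 288 CPM in the P13 libraries, a log2 fold change of 1.66 ± 0.27 (SE), adjusted p = 0.00469. Sod3, the extracellular superoxide dismutase, changed by 1.98 ± 0.29 (SE), adjusted p = 0.0026.

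Some of the largest folds belonged to genes of very low level. Dio3os, a noncoding RNA beside the thyroid hormone-inactivating deiodinase gene Dio3, had 0 counts over the 3 P5 libraries and 168 over the 3 P13 libraries, which puts it at least 67.4-fold higher when P5 is set to a floor of 3 counts over the group. This bound was 40.5 to 76.8 with 1 library left out. Of these fits Dio3os passed only in that without P13 replicate 2 (adjusted p = 0.0456), with adjusted p of up to 0.139 in the others. The P13 libraries had 4.72, 2.92 and 2.1 CPM of it. Kcng4, a potassium channel subunit, was at 0.117, 0.0427 and 0.11 CPM in the P5 libraries and 6.16, 16.3 and 1.71 CPM in the P13 libraries, with 6.41 ± 1.14 (SE), adjusted p = 0.0166. Cadm3, an adhesion molecule, and A230001M10Rik, a long noncoding RNA, rose by 4.04 and 3.39 on the log2 scale, both with an adjusted p of 0.0456. With the replicate number as a block their adjusted p were 0.0575 and 0.0607, and neither passed with any 1 library left out. Kcng4 lost its call without any 1 of the P5 libraries, with adjusted p of 0.139 without P5 replicate 2.

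**Figure D3:**
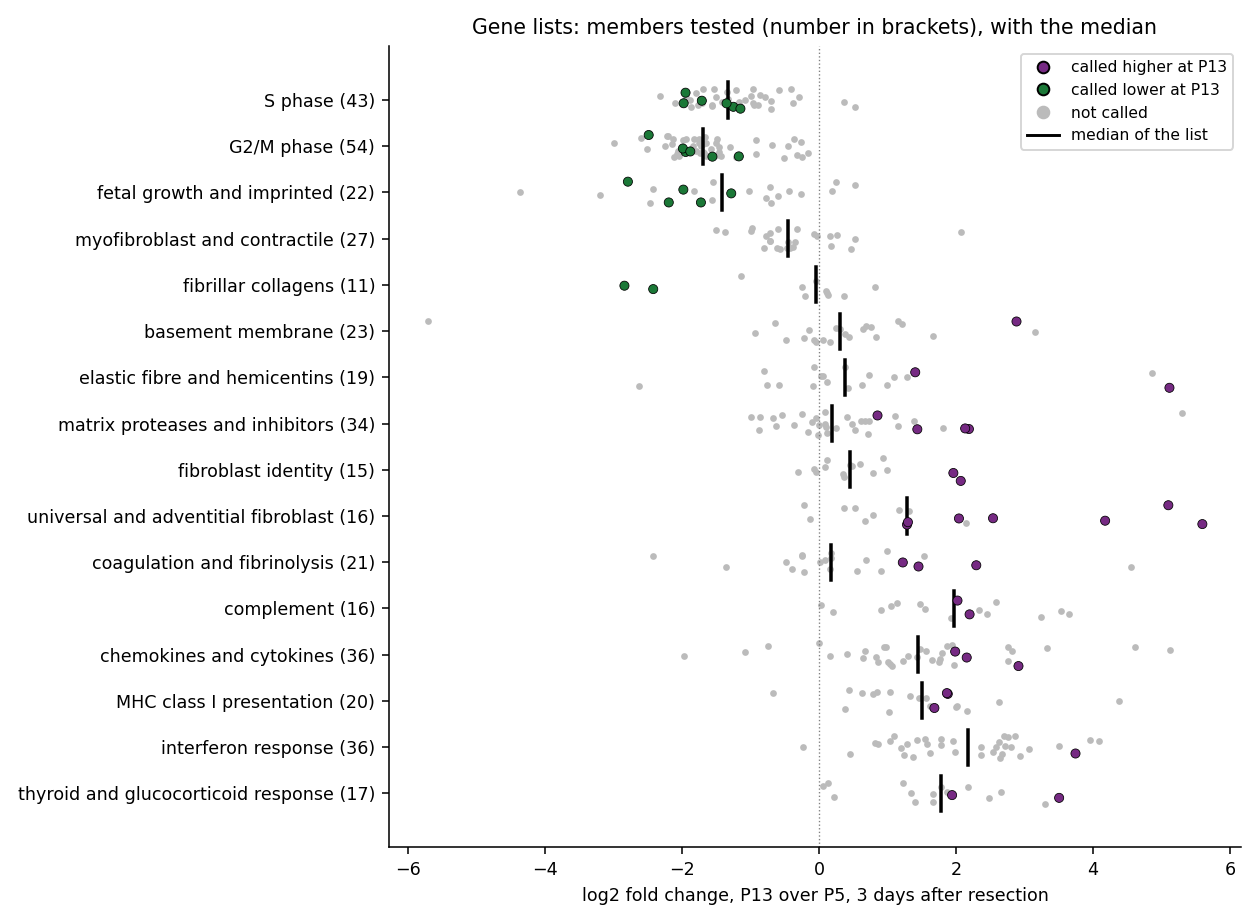
Log2 fold change of P13 over P5 after resection (x axis) for the tested members of 16 gene lists, with called members in colour and a bar at each list's median. The S phase, G2/M and fetal growth lists lie to the left, with medians of -1.32, -1.70 and -1.41, and the complement list to the right, at 1.97.

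Innate defence genes varied widely between the P13 libraries. The complement cascade tags cells and debris, and fibroblasts make several of its components. All 16 members tested had a positive fold change, 8 were higher without overlap (10.6% of all genes) and 2 passed, both higher (0.625% of all genes), with a median of 1.97. The summed level was 1264, 925 and 963 CPM in the P5 libraries and 3581, 2551 and 7227 CPM in the P13 libraries, so that P13 replicate 3 was highest and the other P13 libraries still exceeded P5. Without that library the median was 1.47. Serping1, the C1 inhibitor, was at 798, 628 and 573 CPM in the P5 libraries and 2385, 1680.2 and 4046 CPM in the P13 libraries, with 2.02 ± 0.27 (SE), adjusted p = 0.000908, and passed with any 1 library left out. C1ra, a protease of the first complement complex, changed by 2.20 ± 0.47 (SE), adjusted p = 0.0321, and its adjusted p was 0.358 without P13 replicate 3. C3, the central component, was at 35.7, 39.0 and 41.7 CPM in the P5 libraries and 216, 69.6 and 1168 CPM in the P13 libraries, with 3.64 ± 1.21 (SE), adjusted p = 0.241. The complement calls numbered 2, 2 and 1 without P13 replicate 1, 2 or 3 and 2, 1 and 1 without P5 replicate 1, 2 or 3. They numbered 4 with the replicate number as a block, which called 186 genes in all.

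Of 36 chemokines, cytokines and their receptors 3 passed, all higher (0.625% of all genes). Cxcl12, a chemokine that holds leukocytes and progenitors in place, was at 80.1, 66.0 and 95.1 CPM in the P5 libraries and 314, 184 and 577 CPM in the P13 libraries, with 2.16 ± 0.35 (SE), adjusted p = 0.00504. Ackr3, its scavenging receptor, was at 120.0, 56.4 and 58.8 CPM in the P5 libraries and 554, 532 and 682 CPM in the P13 libraries, with 2.91 ± 0.48 (SE), adjusted p = 0.0054. Il33, an alarmin, changed by 1.99 ± 0.45 (SE), adjusted p = 0.0456, with an adjusted p of 0.407 without P13 replicate 3. The list's median of 1.45 fell to 1.10 without that library. Its calls numbered 3, 3 and 2 without P13 replicate 1, 2 or 3 and 2, 0 and 1 without P5 replicate 1, 2 or 3.

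Genes of antigen presentation on MHC class I and of the interferon response had high medians, 1.51 over 20 and 2.17 over 36 tested members, that rested in large part on P13 replicate 3. The summed level of the MHC class I list was 1268, 962 and 1074 CPM at P5 and 1867, 1669 and 4489.7 CPM at P13. That of the interferon list was 1539, 1252 and 1615 CPM at P5 and 2291, 1576 and 8467 CPM at P13. P13 replicate 2 lay within the P5 range for the interferon list. Without P13 replicate 3 the medians were 0.87 and 0.60, and neither list kept a call.

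H2-K1 and H2-D1, the classical class I heavy chains, and Tapbp, which loads peptide on them, passed with all libraries. H2-K1 was at 70.8, 45.8 and 45.7 CPM in the P5 libraries and 133, 123 and 342 CPM in the P13 libraries, with 1.88 ± 0.34 (SE), adjusted p = 0.0105, and H2-D1 changed by 1.68 ± 0.32 (SE). Tapbp was at 91.0, 89.9 and 87.6 CPM in the P5 libraries and 250.02, 238 and 490.5 CPM in the P13 libraries, with 1.87 ± 0.32 (SE), adjusted p = 0.00834. Without P13 replicate 3 the adjusted p was 0.0581 for H2-K1, 0.0806 for H2-D1 and 0.0581 for Tapbp, and the list also lost its calls without P5 replicate 2 or 3. The heavy chains are near copies, and 29.0% of the exonic bases of Tapbp lie in exons of Gm19412 or Zbtb22. The light chain B2m was at 537, 342 and 450.2 CPM in the P5 libraries and 612, 464 and 1615 CPM in the P13 libraries, with 1.02 ± 0.34 (SE), adjusted p = 0.242.

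Ifit3, an interferon-induced antiviral protein, was the member of the interferon list that passed, at 8.62, 5.94 and 4.68 CPM in the P5 libraries and 28.6, 11.8 and 217 CPM in the P13 libraries, with 3.74 ± 0.85 (SE), adjusted p = 0.0456. Without P13 replicate 3 its log2 fold change was 1.67, adjusted p = 0.637. Its adjusted p was 0.126, 0.258 and 0.23 without P5 replicate 1, 2 or 3, and 0.0789 with the replicate number as a block. Isg15, a ubiquitin-like interferon target, was at 11.7, 9.66 and 5.84 CPM in the P5 libraries and 13.5, 10.1 and 134 CPM in the P13 libraries, and its group difference did not pass (2.53 ± 0.79 (SE), adjusted p = 0.194). The list's calls numbered 4, 8 and 0 without P13 replicate 1, 2 or 3 and 0, 0 and 0 without P5 replicate 1, 2 or 3. DESeq2 called 9 members and limma voom 0, of 499 and 908 genes called in all. Ifit3b is a near copy of Ifit3, so that reads matching both may have been misassigned or left uncounted. The stretch before the Ifit3 start site, from the plus strand at chr19:34583318-34583431 in RefSeq on GRCm38.p6, is shown for the interferon-stimulated response element, searched as GAAANNGAAA on both strands.
Ifit3: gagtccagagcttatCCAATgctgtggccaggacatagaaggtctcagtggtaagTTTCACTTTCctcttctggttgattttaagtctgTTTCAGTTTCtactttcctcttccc
It holds 2 such elements and 1 CCAAT box, in capitals. Of 26 interferon genes with a window 14 held the element (53.8%), against 3.24% of tested genes and 2.98% of all windows.

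**Figure D4:**
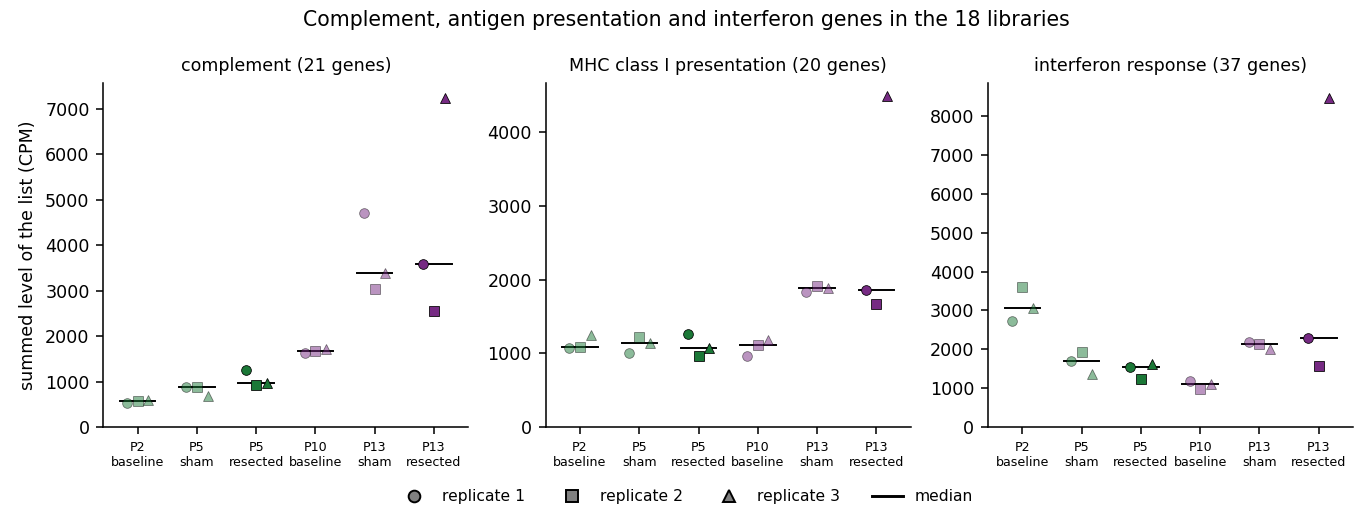
Summed level in CPM (y axis) of the complement, MHC class I and interferon lists in the 6 groups, with 1 point per library and a line at the group median. P13 replicate 3 of the resected group, at 8467 CPM for the interferon list, is the highest of the 18 libraries in each panel.

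Hormone-responsive genes held 2 calls, both higher at P13 (0.625% of all genes). All 17 members of the thyroid and glucocorticoid list had a positive fold change, 12 without overlap (10.6% of all genes), and the median was 1.78. Hsd11b1, which regenerates active glucocorticoid, was at 6.39, 3.72 and 2.53 CPM in the P5 libraries and 37.4, 15.8 and 90.4 CPM in the P13 libraries, with 3.50 ± 0.64 (SE), adjusted p = 0.0121. Hr, a corepressor and target of the thyroid hormone receptor, was at 13.9, 10.0 and 9.52 CPM in the P5 libraries and 46.8, 59.7 and 21.99 CPM in the P13 libraries, with 1.94 ± 0.41 (SE), adjusted p = 0.0264. P13 replicate 3 was the highest library for Hsd11b1 and the lowest P13 library for Hr. Without it Hsd11b1 had a log2 fold change of 2.67 and an adjusted p of 0.0953, and Hr one of 0.019. Hr lost its call without any other of the 6 libraries, with adjusted p of up to 0.196. The calls of this list numbered 3, 1 and 1 without P13 replicate 1, 2 or 3 and 1, 0 and 1 without P5 replicate 1, 2 or 3.

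The coagulation and fibrinolysis list held 3 calls of 21, all higher (0.625% of all genes). Thbd (chr2:148404466-148408188), thrombomodulin, which turns thrombin towards anticoagulation, was at 51.9, 29.6 and 53.6 CPM in the P5 libraries and 206, 222 and 234 CPM in the P13 libraries, with 2.29 ± 0.27 (SE), adjusted p = 0.000354, and passed with any 1 library left out. F3, tissue factor, which starts clotting, changed by 1.45 ± 0.30 (SE), adjusted p = 0.0248, and Serpinf1, an antiangiogenic serpin, by 1.22 ± 0.22 (SE), adjusted p = 0.00985. The calls of the list numbered 2, 2 and 2 without P13 replicate 1, 2 or 3 and 3, 1 and 1 without P5 replicate 1, 2 or 3. F3 passed in 1 of these fits, with adjusted p from 0.0358 to 0.215 and 0.106 without P13 replicate 3. Immediate early genes held 2 calls of 29, both higher (0.625% of all genes). Jun was at 636, 841 and 522 CPM in the P5 libraries and 1519, 1370.2 and 1501 CPM in the P13 libraries and Dusp1 at 389, 649.8 and 394 CPM in the P5 libraries and 1205, 1081 and 1549 CPM in the P13 libraries, with log2 fold changes of 1.13 ± 0.26 (SE) and 1.42 ± 0.30 (SE). Both are induced by tissue digestion as well as in the animal, and the longer digestion of later hearts moves with age, so its part in these values cannot be told apart. Jun lost its call with any 1 of the 6 libraries left out, with adjusted p from 0.0821 to 0.272. Dusp1 lost it with any but P13 replicate 2 left out, with adjusted p from 0.0413 to 0.202.

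Growth factor, lipid and retinoid lists held 1 or 2 calls each, where 0.86% of all genes were called. The TGF-beta and activin list had 1 call of 29 (Tgfbi, an adhesive TGF-beta target, 1.18 ± 0.26 (SE)), the BMP list 1 of 25 (Bmper, a BMP modulator, 1.72 ± 0.34 (SE)) and the Wnt list 1 of 38 (Wnt11, a noncanonical ligand, 1.78 ± 0.36 (SE)). The IGF axis had 2 of 15, the binding proteins Igfbp6 and Igfbp7. Igfbp6 was at 32.1, 24.7 and 27.5 CPM in the P5 libraries and 139, 164 and 143 CPM in the P13 libraries, with 2.40 ± 0.43 (SE), adjusted p = 0.0106, and Igfbp7 changed by 0.80 ± 0.15 (SE). Lipid handling had 2 of 24, Apod and Angptl4, and the retinoid list 1 of 20, Aldh1a1, which makes retinoic acid, with 1.62 ± 0.32 (SE), adjusted p = 0.0182. Apod, a lipid-binding lipocalin, was at 20.7, 18.9 and 13.7 CPM in the P5 libraries and 76.2, 38.1 and 429 CPM in the P13 libraries, so that P13 replicate 3 was far above the others, and its adjusted p was 0.0797 without it. Apart from Igfbp6, which kept its call without P13 replicate 3 (0.037), the genes of this paragraph lost theirs without that library. Each lost it without P5 replicate 2, with adjusted p from 0.0983 for Igfbp6 to 0.24 for Angptl4. None of 19 circadian, 18 arginine and polyamine, or 17 cell cycle inhibitor genes passed. With the replicate number as a block 1 inhibitor passed, Gas1, a membrane protein that restrains growth, with a log2 fold change of 0.81 and an adjusted p of 0.0488, against 0.0546 without the block. DESeq2 called 1 inhibitor higher and 1 lower, of 499 genes called in all, and limma voom 2 higher and 1 lower, of 908.

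Markers of cells outside the sort varied between libraries. Summed macrophage markers were at 467, 207 and 68.6 CPM in the P5 libraries and 470.1, 1128 and 75.2 CPM in the P13 libraries, with 0 of 14 called. P13 replicate 3 had few of them. Cardiomyocyte markers summed to 334, 888 and 964 CPM at P5 and 722, 438 and 240.3 CPM at P13, with 1 of 12 called, lower at P13 (0.235% of all genes). Tnni1, the fetal troponin I, was at 18.8, 47.0 and 40.7 CPM in the P5 libraries and 1.39, 1.91 and 0.855 CPM in the P13 libraries, a log2 fold change of -4.66 ± 0.89 (SE), adjusted p = 0.0148, with adjusted p from 0.022 to 0.13 with 1 library left out. Endothelial markers were at 529, 239.5 and 249 CPM and 554, 346 and 390.2 CPM, and mural cell markers at 692, 1052 and 1142 CPM and 873, 1074 and 780.2 CPM. Red cell markers were at 115, 44.0 and 89.8 CPM and 479.7, 295 and 84.8 CPM, with 0 of 7 called and a median log2 fold change of 1.79, and epicardial markers at 74.4, 82.4 and 63.7 CPM and 103, 70.8 and 50.1 CPM, with 0 of 9 called and a median of 1.38. P13 replicate 3 was the lowest P13 library of both sums. Schwann and neuronal markers were at 35.4, 32.7 and 31.4 CPM and 54.2, 54.6 and 49.4 CPM, with 0 of 4 called. Other leukocyte markers summed to at most 29.2 CPM, and Cd3e, Cd3d and Nkg7 had no read in the 6 libraries. The part of such cells in the changes above was not tested.

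Most of the genes called after resection also differed with age without it. No library is shared between the 3 age comparisons. Between P13 and P5 sham libraries 515 genes passed (3.18%), and between P10 and P2 baseline libraries 709 (4.38%). Of the 139 genes called after resection, 122 were also called after sham with the same sign, which is 87.8% of the 139 and 23.7% of the 515. At baseline 98 were called with the same sign, which is 70.5% of the 139 and 13.8% of the 709, and 93 genes were called in all 3 comparisons. The direction was shared by all 139 genes after sham and by 132 at baseline. The genes called higher had a median log2 fold change of 1.95 after resection, 1.85 after sham and 1.57 at baseline, and those called lower of -1.95, -2.23 and -1.69.

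Single genes had values of like size in the 3 comparisons in some cases and not in others. Pi16 had log2 fold changes of 4.18 after resection, 4.06 after sham and 5.54 at baseline, Pcolce2 of 3.39, 3.18 and 3.75, Dlk1 of -2.79, -2.17 and -1.64, and Thbd of 2.29, 2.12 and 3.25. The G2/M list had a median of -1.70 after resection, -2.97 after sham and -1.98 at baseline. Cdk1 had -3.55 after sham and -2.14 at baseline. Between the age difference after resection and that after sham, 0 genes passed in edgeR's test (0.0%), with 465 at an unadjusted p under 0.05 (2.88%), 26 by DESeq2 (0.115%) and 0 by limma voom. A call made after resection and not after sham, as for 17 of the 139 genes, was therefore not shown to be particular to resection.

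**Figure D5:**
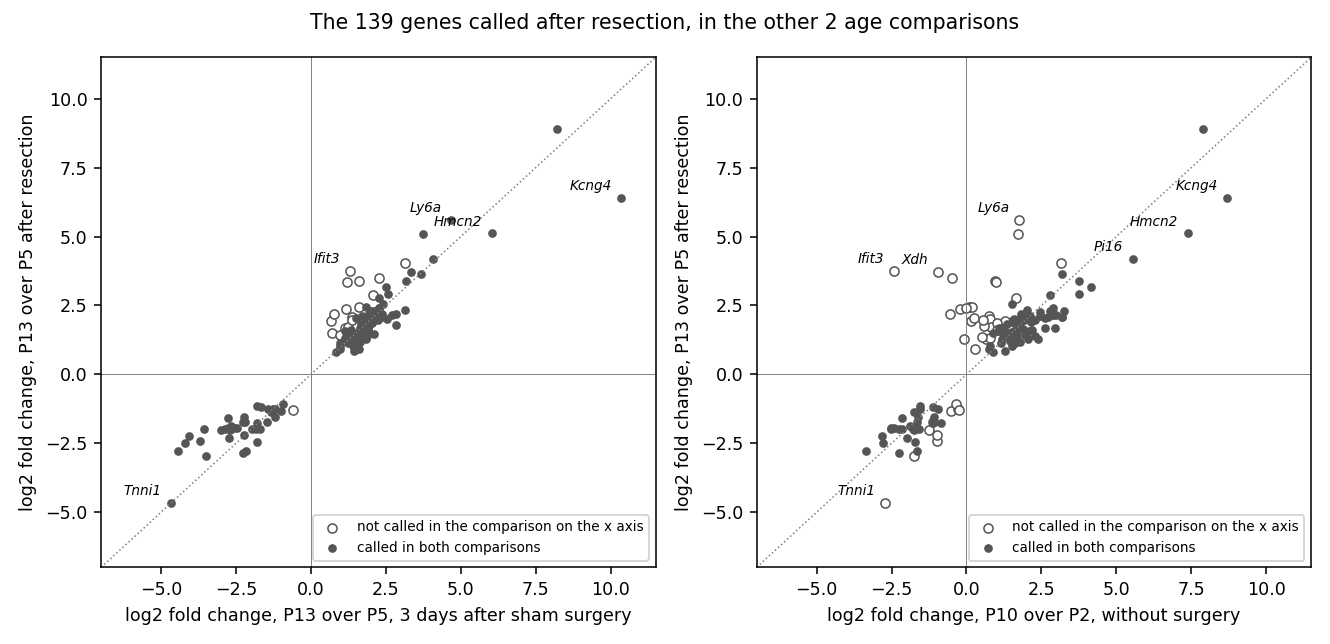
Log2 fold change after resection (y axis) of the 139 called genes against that after sham (left) or at baseline (right), with filled points called in both comparisons and a dotted line of equality. All points of the left panel have the same sign on both axes, and 7 genes differ in sign in the right panel.

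Against baseline, 9 genes passed the test of the difference (0.0557%). Among them were Isg15, Oasl2, Oas1a, Usp18 and Rtp4, all of the interferon response and with a positive change after resection, and Pamr1, Olfr558 and Vtn, with a larger positive change at baseline than after resection. Each of these 5 interferon genes had a negative log2 fold change at baseline that was larger in size than its positive one after resection, as for Isg15 with -4.08 at baseline and 2.53 after resection. The interferon list summed to 2725, 3599 and 3073 CPM at P2 baseline and 1189, 985 and 1113 CPM at P10 baseline, against 1539, 1252 and 1615 CPM and 2291, 1576 and 8467 CPM in the resected groups. The list's median was 2.17 after resection, 0.30 after sham and -2.27 at baseline. Without P13 resected replicate 3, 4 genes passed this test, and none passed in 7 of the 12 fits with 1 resected or baseline library left out, those without any 1 of the P5 resected or P10 baseline libraries or P2 baseline replicate 2. Vtn, vitronectin, was at 14.9, 22.05 and 28.8 CPM in the P5 libraries and 70.2, 106 and 82.7 CPM in the P13 libraries after resection, a log2 fold change of 1.98, against 7.12 at baseline.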

How the data were processed

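Bulk RNA sequencing of sorted GFP+ cells was analysed for 18 libraries in 6 groups of 3, grouped by their labels. The deposited values are whole-number counts of reads per gene symbol, not normalized, which the authors made with fastp 0.20.0, STAR 2.7.0f on GRCm38 and featureCounts of Subread 1.6.4 over GENCODE exons, without regard to strand. Total counts bound the precision: resected libraries held 14440363 to 22980554. The floor of 3 counts reflects counting error alone, as PCR copies of a molecule could not be recognized.

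Of 55453 symbols, 16170 passed edgeR's filterByExpr (minimum count 10, minimum total 15). edgeR 4.0.16 in R 4.3.3 fitted a quasi-likelihood model to all 18 libraries with TMM scaling and 1 mean per group (12 residual degrees of freedom), and Benjamini-Hochberg adjusted p under 0.05 was called. The model was tested on simulated data. The comparisons were P13 against P5 after resection, the same after sham, P10 against P2 at baseline, and the differences of the first from the other two. Alternatives were DESeq2 1.42.0, limma 3.58.1 voom with quality weights, RLE scaling, no filter, at least 1 CPM in 3 libraries, only the groups compared, a replicate block, and each library left out.

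Same-numbered P5 and P13 resected libraries deviated together, at r = 0.121, 0.189 and 0.130 across genes for numbers 1, 2 and 3, so the numbers may pair these libraries. The pairing comes from the data and not from the labels.

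Genes named are the largest changes called (15 per direction by fold, 8 by difference in CPM), called members of the lists, the 2 members of highest level per list, genes the study or earlier results name, and the leading genes of the difference tests. The 40 lists hold 927 genes, and the comparison and lists were chosen with earlier results of these data known. Gene positions are from GENCODE on GRCm38. Promoter windows are from RefSeq. Spatial data were not analysed here, and 1 gene of the difference from baseline is not reported here.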

Additional observations from a re-analysis of the deposited data

Results flagged for a closer look

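For 8 genes given here the age difference after resection differed from that at baseline in edgeR's quasi-likelihood test of the difference, an interaction of age and group. The difference is the log2 fold change of P13 over P5 after resection minus that of P10 over P2 at baseline. It was 6.61 for Isg15, 5.93 for Oasl2, 8.71 for Oas1a, 6.70 for Usp18 and 5.87 for Rtp4, which are interferon response genes. It was -2.02 for Pamr1, -5.70 for Olfr558 and -5.14 for Vtn. Adjusted p lay between 0.0271 and 0.0420 with all libraries. With the replicate number as a block 3 of these genes lost their calls, with adjusted p of 0.115 for Isg15, 0.0587 for Olfr558 and 0.0570 for Rtp4, and the other 5 had 0.0492.

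The interferon genes were highest in P13 resected replicate 3. Without that library the difference was 4.45 for Isg15, 4.23 for Oasl2, 6.93 for Oas1a, 4.95 for Usp18 and 4.06 for Rtp4. The adjusted p was then 0.0221 for Usp18, 0.0229 for Rtp4, 0.0413 for Oasl2, 0.0631 for Isg15, and 0.0695 for Oas1a, Pamr1, Olfr558 and Vtn. Without P5 resected replicate 1, 2 or 3, adjusted p ran from 0.0761 to 0.238 over the 8 genes. None of them passed without any 1 of the P10 baseline libraries, with adjusted p from 0.0510 to 0.201, or without P2 baseline replicate 2, and Vtn alone passed without P2 baseline replicate 1. Over all alternatives Usp18 passed in 10 of 19 settings and Isg15 in 5 of 18, with adjusted p for Isg15 from 2.56e-17 to 0.238. The baseline and resected groups also differ by 3 days of age at collection, so that surgery and these days cannot be told apart.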

How the results depend on the processing

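RLE scaling, a filter of at least 1 CPM in 3 libraries and the replicate block moved no total of called genes by over 1.5 times, but the block moved the genes called lower from 38 to 62 after resection and from 271 to 439 at baseline. Without a filter on low counts, 526 genes were called after resection, 911 after sham and 1155 at baseline, with 30 for the difference from sham and 193 for the difference from baseline. DESeq2 called 499, 1284, 1675, 26 and 134 in the same order. Limma voom with quality weights called 908 after resection, 3645 at baseline and 154 for the difference from baseline. Fitting only the groups compared called 332 after resection, 125 after sham, 295 at baseline and 0 for the difference from baseline. With 1 library left out the counts ran from 30 to 136 after resection, 312 to 416 after sham, 264 to 1207 at baseline, 0 to 4 for the difference from sham and 0 to 36 for the difference from baseline. The cause of these shifts was not tested. In the omissions the group left with 2 libraries keeps the spread estimated over all groups.

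Of 83 called genes named by the rule, DESeq2, RLE scaling and the CPM filter kept 83, voom 82, no filter 80, only the groups compared 69, and single omissions 18 (P5 replicate 2) to 62 (P13 replicate 2). The replicate block gave 186 genes after resection and ended the calls of Cadm3, A230001M10Rik and Ifit3 among the 83, and of no other gene of these. Same-numbered sham libraries correlated at 0.291, 0.154 and 0.0370, the first 2 of like size to the resected pairs or larger. Sham libraries of different number reached 0.129, so a pairing of the sham libraries is left undecided. At baseline same-numbered libraries correlated at 0.00770, -0.0663 and 0.0959, which shows no pairing. The block gave 636 genes after sham and 1008 at baseline. The block gave 7 genes for the difference from baseline. The log2 fold change of Tcf21, 0.08, became -0.011 without P13 replicate 1, -0.037 without P5 replicate 2, -0.054 without P5 replicate 3 and 0.36 without P5 replicate 1, never passing the test. With 3 libraries a group, changes below those called are not shown to be absent.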
